A study of Mus musculus with 12 samples.

Results

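The IL-1 family of cytokines and receptors was examined in mouse oral tumours that expressed RAS alone or RAS with a human papillomavirus (HPV) transgene. The members were 10 genes chosen by name: the cytokines Il1a, Il1b, Il18, Il33, Il1f6 and Il1f9, the antagonist Il1rn, the signalling receptor Il1r1, the decoy receptor Il1r2 and the IL-33 receptor Il1rl1. Il1f6 and Il1f9 are the older names of Il36a and Il36g, which encode IL-36α and IL-36γ. Of the 10, 9 were measured, among 23102 genes in all; Il1rl1 is not analysed here. The 9 genes rested on 78 probesets, and each gene value below is a log2 intensity, taken as the middle value over its probesets.

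The 12 tumours came from C57BL/6 × FVB F1 mice that had been injected with tamoxifen, and each gave 1 array. The group written KR (n = 6) expressed RAS. In the KHR group (n = 6) RAS was combined with the iHPV transgene, and the sample description mentions HPV E6. The sources used here do not spell out the letters, the promoters that drive the transgenes, or the age and sex of the mice. They also do not state whether each tumour had its own mouse, so p-values refer only to the spread among these arrays, which may be partly technical.

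IL-1 family cytokines carry inflammatory signals between epithelium and leukocytes. IL-1α and IL-33 are stored in living epithelial cells and act as alarmins when the cells are damaged, whereas IL-1β and IL-18 are made as precursors that inflammasome caspases cut. IL-1α and IL-1β bind the receptor encoded by Il1r1, which signals only with the accessory chain encoded by Il1rap. The antagonist encoded by Il1rn occupies the same receptor without signalling, and the receptor encoded by Il1r2 binds the cytokine but has no signalling domain. IL-36 cytokines are made by squamous epithelium and signal through a receptor of their own, encoded by Il1rl2, that shares the accessory chain.

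The labelled tissue carried its defining markers. Of 15 measured keratinocyte genes, such as Krt5 and Krt14, none passed (1 at an unadjusted p under 0.05 in limma), and their mean level per array lay between 11.85 and 11.99 in KR tumours and between 11.84 and 12.08 in KHR tumours, against a median level of 4.98 over all genes. Epcam, an epithelial adhesion gene on that list, differed by 0.88 ± 0.24 (limma, adjusted p = 0.0670); it passed with the mean over probesets (0.70, adjusted p = 0.0202) and with median polish (0.71, adjusted p = 0.0378). Leukocyte lists were less even. The mean of 18 neutrophil genes ran from 5.19 to 5.86 in KR and from 5.68 to 6.18 in KHR tumours, and that of 15 macrophage genes from 5.18 to 5.74 and from 5.58 to 6.24. Skeletal muscle genes and Xist, which marks the inactive X chromosome of female cells, were uneven as well. The mean of 30 skeletal muscle genes ran from 5.43 to 6.71 in KR and from 5.45 to 7.80 in KHR tumours, and Xist was high on 2 of 6 KR and 4 of 6 KHR arrays. In a bulk tumour, fewer cells of a type and less RNA per cell cannot be told apart.

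Il1a was the 1 measured member that passed the test. It rose in KHR tumours, while the other 8 measured members, including the antagonist and both receptors, did not pass in either direction (limma, Benjamini-Hochberg adjusted p under 0.05 over all 23102 genes). Of all genes tested, 2.71% passed as higher in KHR tumours and 1.03% as lower. The median change of the 9 members was 0.19 on the log2 scale, against 0.00 over all genes.

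Il1a encodes IL-1α, the alarmin of epithelial cells. Its level ran from 8.78 through a median of 9.23 to 9.52 in KR tumours and from 9.55 through 10.01 to 10.32 in KHR tumours. All 6 KHR arrays therefore lay above all 6 KR arrays, although the highest KR and the lowest KHR array were close; over all genes, 1.83% were separated in this direction. The change was 0.81 ± 0.17 on the log2 scale (SE, n = 6 each; limma, adjusted p = 0.0178), a 1.75-fold difference with a 95% confidence interval of 0.44 to 1.18 in log2. Every one of its 7 probesets was higher in KHR tumours, by 0.63 to 1.14, and none passed when tested alone over all probesets of the array. Only probeset 17391559 was separated between the groups, at 8.78 to 9.45 in KR and 9.55 to 10.32 in KHR tumours. On most arrays its value was the gene value, so the separation of Il1a rests largely on that probeset. The groups overlapped for every other Il1a probeset.

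For Il1a all KHR arrays lay above all KR arrays, so that order within each Xist class was fixed and is no separate check. Among arrays with low Xist, the 4 KR arrays reached 9.45 and the 2 KHR arrays started at 9.55. Among arrays with high Xist, the 2 KR arrays reached 9.52 and the 4 KHR arrays started at 9.80. The differences of the means within these classes were 0.63 and 0.68, each lower than the pooled 0.81.

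Over the 12 arrays, the genes whose values followed Il1a most closely were Epcam, the exonuclease gene Eri1 and the condensin gene Ncapg2, with Pearson's r of 0.95, 0.95 and 0.94 as a description with no test. Part of this likeness comes from the group difference that they share; after subtracting group means, r was 0.91, 0.89 and 0.83. Epcam was higher in KHR tumours by 0.88 ± 0.24 without passing (limma, adjusted p = 0.0670), Eri1 rose by 0.76 ± 0.20 (adjusted p = 0.0471) and Ncapg2 by 0.90 ± 0.16 (adjusted p = 0.00596).

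The call of Il1a was lost with the mean of the neutrophil, macrophage or muscle list as a covariate. Without a covariate the change was 0.81 ± 0.17. With the mean of the neutrophil list as a covariate the change was 0.65 ± 0.22 (limma, adjusted p = 0.187), with that of the macrophage list 0.66 ± 0.24 (adjusted p = 0.334) and with that of the muscle list 0.71 ± 0.18 (adjusted p = 0.0536). These covariates also lowered the number of genes that passed over the whole array. The neutrophil list held S100a8 and S100a9, which stressed keratinocytes also make, so its mean is not a measure of cell content alone. The part of these cells in the result was not tested.

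The sequence before a listed start site of Il1a is shown because Il1a is the member that rose. The 250 bases upstream of the start (RefSeq, GRCm38.p6, chr2:129309973-129310222, minus strand) are given 5′ to 3′, with capitals at a TATA box match (TATAAA) and at an AP-1 match (TGANTCA).
Il1a: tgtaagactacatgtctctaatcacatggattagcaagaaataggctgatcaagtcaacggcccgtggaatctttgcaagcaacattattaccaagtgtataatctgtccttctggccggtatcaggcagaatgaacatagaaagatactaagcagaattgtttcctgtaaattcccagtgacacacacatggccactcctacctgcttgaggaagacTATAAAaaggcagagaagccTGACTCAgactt
On either strand, TATAAA occurred in 12.4% and TGANTCA in 6.75% of 32851 such windows. The RefSeq table held 14 windows for 9 of the 10 members, of which 5 held TATAAA and 2 held TGANTCA, the other being 1 of 3 windows of Il1rn. The NF-kB consensus occurred in 1 of the 14 windows, of Il1r1, and in 7.25% of all. The E2F-like letters TTTNNCGC occurred in 1 of the 14 windows, again of Il1rn, and in 4.28% of all. The Il1a window held neither of these last 2. RefSeq gives the Il1a gene as reaching to base 129310186 of chromosome 2, so most of the window shown lies within the listed gene. A match describes the letters and is not a site.

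**Figure D1:**
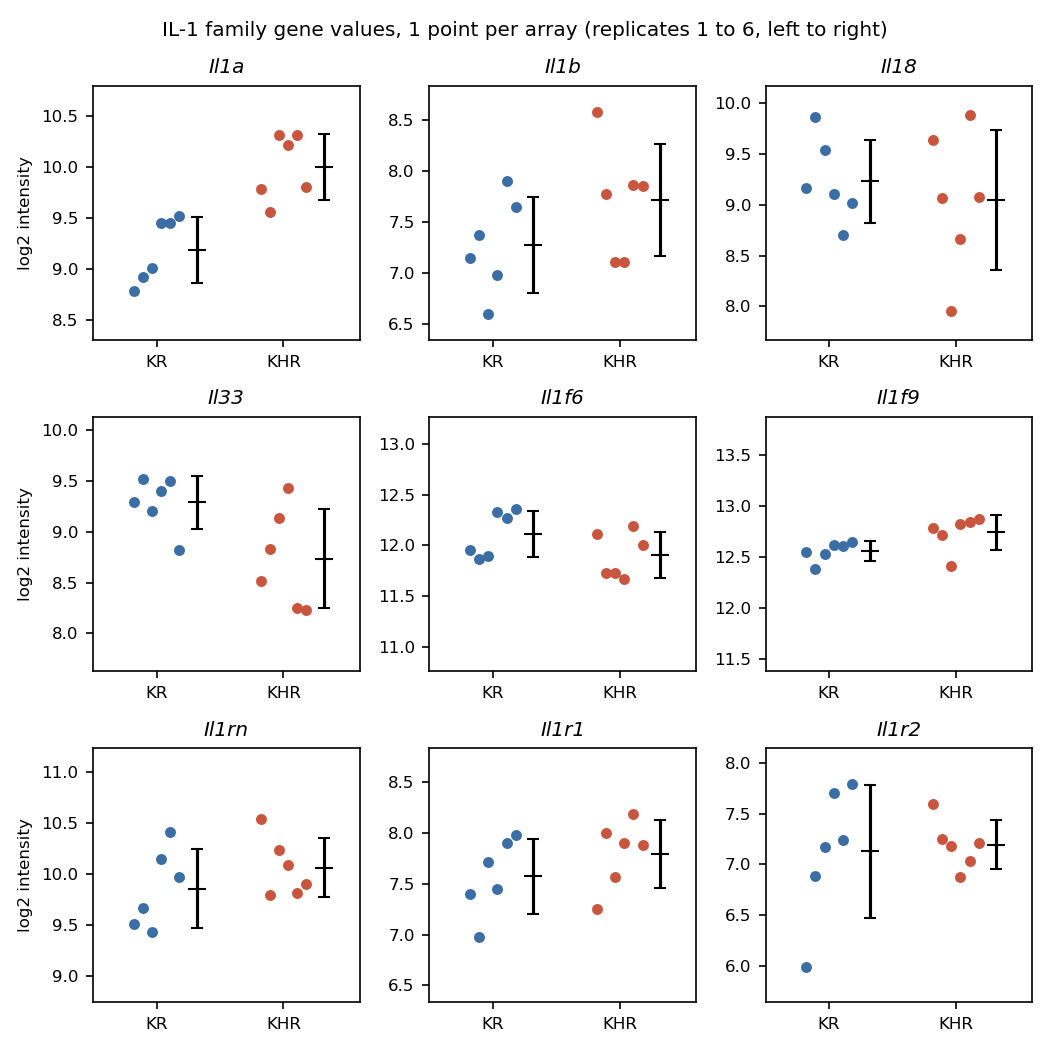
Log2 intensity of the 9 measured IL-1 family genes, 1 point per array, with the mean and SD of each group (n = 6) at its right; every panel spans 2.5 log2 units. Only for Il1a do the KHR points all lie above the KR points; the Il33 points of KHR tumours spread from 8.24 to 9.43.

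Il33 encodes IL-33, a nuclear alarmin of barrier epithelium and stroma. Its level ran from 8.82 through 9.34 to 9.52 in KR tumours and from 8.24 through 8.67 to 9.43 in KHR tumours. The KR arrays lay close together, with KR 6 lowest, while 3 KHR arrays, KHR 2, KHR 3 and KHR 4, lay within the KR range and KHR 5 and KHR 6 were the lowest of all. The difference of -0.55 ± 0.20 did not pass (SE, n = 6 each; limma, adjusted p = 0.174), and the 95% confidence interval, which is not adjusted for the number of genes, was -0.99 to -0.12.

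The probesets of Il33 did not move alike. Of 12, 10 were lower in KHR tumours, and 1 of them passed over all probesets, where 0.267% of 269751 passed as lower. That probeset, 17358603, ran from 8.70 to 9.66 in KR and from 7.60 to 8.59 in KHR tumours without overlap, a change of -1.34 ± 0.20 (limma, adjusted p = 0.00843 over all probesets). Probeset 17358610 was separated in the same direction, from 11.4 to 12.1 in KR and from 9.70 to 11.2 in KHR tumours, a difference of -1.06 ± 0.25 (adjusted p = 0.0687). Probeset 17358601 differed in the opposite direction, by 1.14 ± 0.43 (adjusted p = 0.283). The share of all probesets whose groups were separated was not counted. The annotation used here gives no position of a probeset within its gene.

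RefSeq lists 2 start sites of Il33, and their upstream sequences are shown because its probesets differed. Both are on the plus strand of GRCm38.p6, at chr19:29924863-29925112 and chr19:29945540-29945789, with capitals at matches of TATAAA.
Il33 start 1: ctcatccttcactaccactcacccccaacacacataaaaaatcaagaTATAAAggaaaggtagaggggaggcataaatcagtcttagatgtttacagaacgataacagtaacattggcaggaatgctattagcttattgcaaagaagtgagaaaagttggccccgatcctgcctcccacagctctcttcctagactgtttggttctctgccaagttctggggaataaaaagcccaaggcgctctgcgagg
Il33 start 2: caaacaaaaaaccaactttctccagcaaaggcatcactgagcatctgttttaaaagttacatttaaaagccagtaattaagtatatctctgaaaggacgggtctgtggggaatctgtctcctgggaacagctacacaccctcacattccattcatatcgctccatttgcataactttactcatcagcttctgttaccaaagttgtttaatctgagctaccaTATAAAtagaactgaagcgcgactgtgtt
The match began 203 bases before the first start and 29 bases before the second; in Il1a and Il1b it began 32 and 31 bases before the start. None of the other 3 motifs occurred in either window of Il33. These arrays do not tell which start was used.

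The inflammasome-dependent cytokines did not pass. Il1b, which encodes IL-1β, ran from 6.60 through 7.26 to 7.91 in KR and from 7.11 through 7.82 to 8.58 in KHR tumours. Only KHR 1 lay above every KR array. The difference was 0.44 ± 0.26 (SE, n = 6 each; limma, adjusted p = 0.457), with a 95% confidence interval of -0.12 to 1.00, so a 2-fold rise was within the interval. With the mean of the neutrophil list as a covariate it was -0.02 ± 0.29, and with that of the macrophage list 0.87 ± 0.34 (adjusted p = 0.382).

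Il18, which encodes IL-18, was spread most widely in KHR tumours, from 7.95 in KHR 3 through 9.07 to 9.88 in KHR 5, against 8.71 through 9.13 to 9.86 in KR tumours. KHR 3 and KHR 4 lay below every KR array and KHR 5 just above them. The difference was -0.18 ± 0.29 (adjusted p = 0.831), and without KHR 3 it was 0.03.

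The IL-36 cytokines, which squamous epithelium secretes, lay within narrow ranges in every tumour. Il1f9 (IL-36γ) ran from 12.4 through 12.6 to 12.6 in KR and from 12.4 through 12.8 to 12.9 in KHR tumours. Of the 6 KHR arrays, 5 lay above every KR array, and KHR 3 lay among the lowest. The difference was 0.19 ± 0.09 (limma, adjusted p = 0.359), and all 6 probesets were higher, by 0.09 to 0.27.

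Il1f6 (IL-36α) ran from 11.9 through 12.1 to 12.4 in KR and from 11.7 through 11.9 to 12.2 in KHR tumours. The difference of -0.21 ± 0.13 did not pass either (adjusted p = 0.482). Its 95% confidence interval of -0.48 to 0.07 and that of Il1f9, -0.01 to 0.39, left out a 2-fold change in either direction. Both genes lay near the top of the array's levels, at percentiles of 99.5 (Il1f6) and 99.8 (Il1f9) over all genes. Whether the signal was compressed there was not tested. Of the 6 Il1f6 probesets, 1 was separated between the groups, at 11.28 to 11.83 in KR and 10.57 to 11.26 in KHR tumours (-0.56 ± 0.15, adjusted p = 0.117 over all probesets). How many of all probesets were separated was not counted.

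The other IL-36 ligands, which were not members, gave small differences too. Il1f5, now Il36rn, encodes the antagonist of the IL-36 receptor. It ran from 11.9 to 12.2 in KR and from 11.5 to 11.9 in KHR tumours without overlap, as did 0.84% of all genes in this direction. Its difference of -0.31 ± 0.09 did not pass with the median of its probesets (limma, adjusted p = 0.0891) and passed with their mean (-0.35, adjusted p = 0.0176) or with median polish (-0.37, adjusted p = 0.0156). Il1f8 (IL-36β) differed by 0.28 ± 0.10 (adjusted p = 0.180) and Il1f10 (IL-38) by -0.18 ± 0.22 (adjusted p = 0.782); the level of Il1f10, 4.00 in KR tumours, lay below the median of all genes. Il1rl2, the IL-36 receptor gene and also named for its role, differed by 0.08 ± 0.11 (adjusted p = 0.828).

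The antagonist of IL-1 did not rise with Il1a past the threshold. Il1rn ran from 9.43 through 9.82 to 10.4 in KR and from 9.80 through 9.99 to 10.5 in KHR tumours, and 5 of 6 KHR arrays lay within the KR range. The difference was 0.21 ± 0.18 (SE, n = 6 each; limma, adjusted p = 0.658; 95% confidence interval -0.18 to 0.59). Its 11 probesets were split, 6 higher and 5 lower, from -1.20 ± 0.49 to 0.34 ± 0.25, and none passed. With the mean of the probesets the difference was -0.07.

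Il1a and Il1rn can also be compared within each array. The difference between the log2 values of Il1a and Il1rn, which is no measure of their relative abundance, ran from -0.97 to -0.42 in KR tumours and from -0.76 to 0.50 in KHR tumours. Its mean in KR was -0.67 ± 0.20 and its mean in KHR was -0.065 ± 0.42 (each SD over 6 arrays), a shift of 0.61 ± 0.19 (SE) with overlapping groups. Against Il33 the shift was 1.36 ± 0.28, and against Il1f6 it was 1.02 ± 0.17, both without overlap. Against the receptors Il1r1 and Il1r2 it was 0.59 ± 0.21 and 0.75 ± 0.26, with overlap. Against Il1b, Il18 and Il1f9 it was 0.37 ± 0.36, 1.00 ± 0.44 and 0.62 ± 0.20, also with overlap. These shifts share the values of Il1a, which by itself separated the groups, so a lack of overlap is no separate result. They were given no test.

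Neither of the measured IL-1 receptors passed. Il1r1 ran from 6.98 through 7.58 to 7.98 in KR and from 7.25 through 7.89 to 8.19 in KHR tumours. The difference was 0.22 ± 0.19 (limma, adjusted p = 0.632; 95% confidence interval -0.17 to 0.62), and 12 of 13 probesets were higher in KHR tumours. With the mean of the macrophage list as a covariate it was -0.04 ± 0.25.

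Il1r2, the decoy receptor, ran from 5.99 through 7.20 to 7.79 in KR and from 6.88 through 7.20 to 7.60 in KHR tumours. KR 1 was the lowest array by a wide margin, and all KHR arrays lay within the KR range. The difference was 0.06 ± 0.25 (adjusted p = 0.950), and it was -0.16 without KR 1. Within the Xist classes it went in opposite directions without overlap, 0.60 among 4 KR and 2 KHR arrays with low Xist and -0.67 among 2 KR and 4 KHR arrays with high Xist; the difference between these was not tested.

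The accessory chain of these receptors did change. Among 8 measured further receptors and decoys, 1 rose and none fell (median change 0.03). The shares of all genes that passed were 2.71% as higher and 1.03% as lower. Il1rap, the chain that IL-1, IL-33 and IL-36 receptors share, ran from 6.97 through 7.25 to 7.69 in KR and from 8.11 through 8.39 to 9.05 in KHR tumours. The groups were well apart, while 1.83% of all genes were separated in this direction. The change was 1.20 ± 0.16 (limma, adjusted p = 0.00125), a 2.29-fold rise that passed on leaving out any array. With the mean of its probesets the change was 0.56 (adjusted p = 0.0103), and with median polish 0.66 (adjusted p = 0.00365).

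The size of the Il1rap change varied over its 21 probesets, from -0.79 to 1.58. Of 14 probesets with a mean above the median level of all genes, 13 were higher in KHR tumours, and 4 probesets passed over all probesets, all higher, where 0.616% passed in that direction. The largest change was that of probeset 17324529, at 6.86 to 7.68 in KR and 8.22 to 9.24 in KHR tumours (1.58 ± 0.22, adjusted p = 0.00554). Il18r1, a chain of the IL-18 receptor, differed by 0.51 ± 0.26 (adjusted p = 0.367), and the brain-expressed homologue Il1rapl2 by -0.18 ± 0.12 (adjusted p = 0.550).

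**Figure D2:**
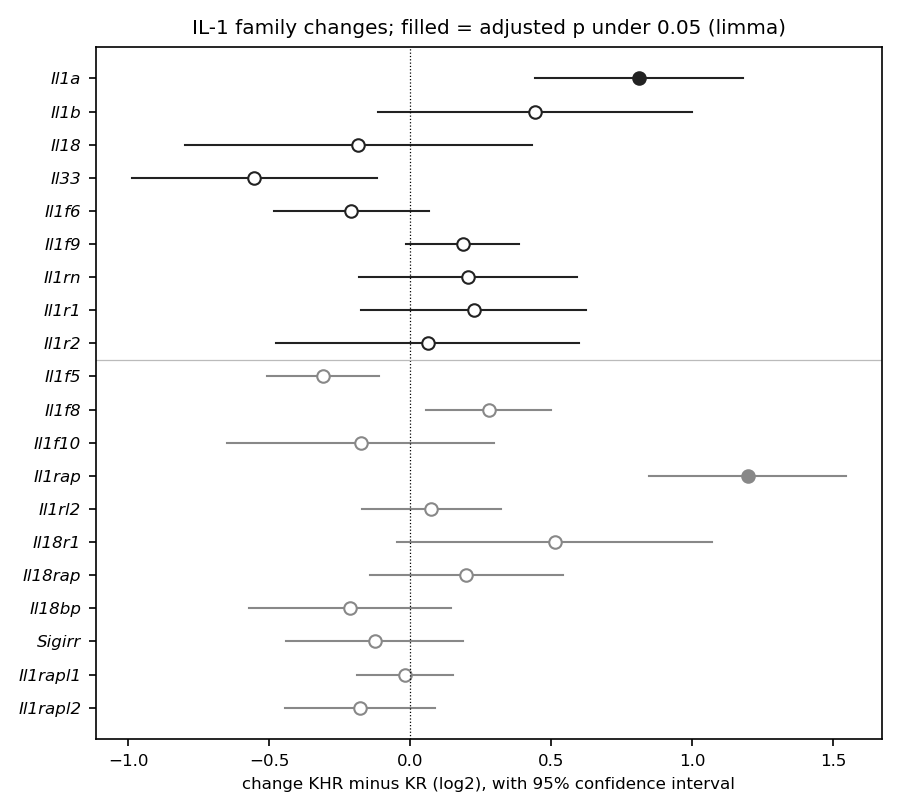
Change between KHR and KR tumours on the log2 scale with its unadjusted 95% confidence interval (limma, n = 6 each) for the 9 measured members above the grey line and 11 other family genes below it. Filled points passed the threshold: Il1a at 0.81 and Il1rap at 1.20.

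**Figure D3:**
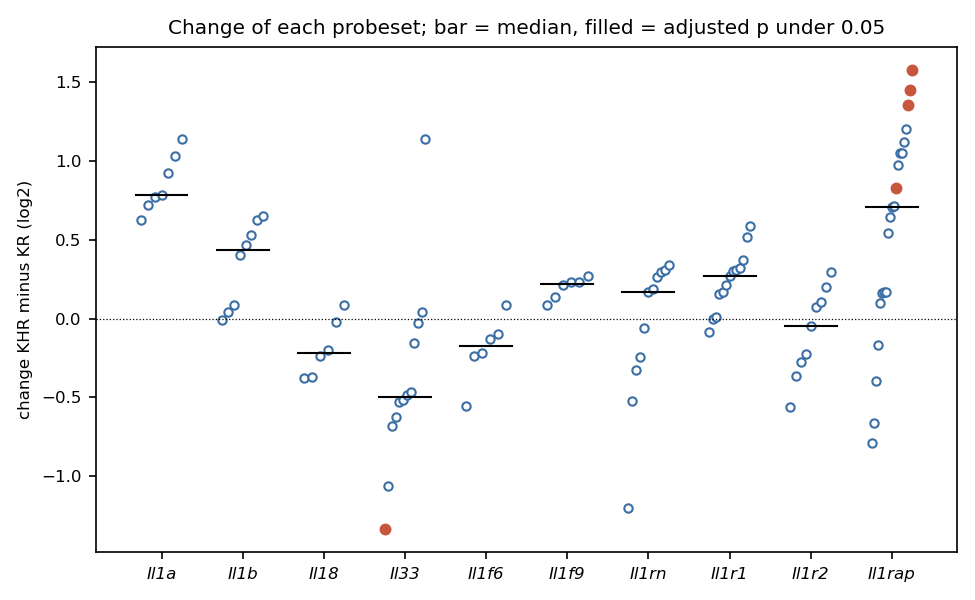
Change between KHR and KR tumours on the log2 scale for each probeset of the 9 members and of Il1rap, with a bar at the median of the changes; filled points passed over all probesets. The 7 probesets of Il1a all lie above 0, and those of Il33, Il1rn and Il1rap spread over more than 1 log2 unit.

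The list for processing and release of IL-1 family cytokines also held the receptor gene Tlr4. Of 24 measured, 2 rose and 1, Tlr4, fell, with a median change of 0.04. Over all genes, 2.71% passed as higher and 1.03% as lower. Casp4, the inflammatory caspase that senses bacterial lipopolysaccharide inside cells, rose by 0.75 ± 0.18 (limma, adjusted p = 0.0372), and Casp8, the initiator caspase of death receptors, by 0.45 ± 0.11 (adjusted p = 0.0415). Tlr4, the cell surface receptor for lipopolysaccharide, fell by 0.68 ± 0.15 on the log2 scale (limma, adjusted p = 0.0259). Its change was -0.33 with the mean of its probesets, which did not pass (adjusted p = 0.0979). With median polish it was -0.37 and passed (adjusted p = 0.0188). All 3 calls were lost on leaving out single arrays: that of Casp4 for any of 7 arrays, that of Casp8 for any of 9 and that of Tlr4 for any of 6 (adjusted p up to 0.0834, 0.0965 and 0.0664). Casp1, the caspase that cuts IL-1β and IL-18, differed by -0.13 ± 0.11 (adjusted p = 0.657), and Nlrp3, the inflammasome sensor, by 0.13 ± 0.13 (adjusted p = 0.723); both are named for their role, after their values were seen.

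No gene of the signalling chain below the receptors passed. Of 26 measured, none rose or fell (limma; 4 at an unadjusted p under 0.05), with a median change of 0.05. The 3 with the smallest p were the kinase gene Mapk8, at 0.45 ± 0.14 (adjusted p = 0.114), the ubiquitin ligase gene Traf6, at -0.32 ± 0.13 (adjusted p = 0.249), and Ikbkg, a subunit of the IκB kinase complex, at 0.33 ± 0.14 (adjusted p = 0.272).

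The known IL-1 and NF-kB target genes that passed were all higher in KHR tumours. Of 31 measured, 4 rose and none fell (9 at an unadjusted p under 0.05 in limma). The median change was 0.20 against 0.00 over all genes. Over all genes, 2.71% passed as higher and 1.03% as lower. The list was chosen with earlier results of these data known, so its count and median cannot serve as a test. The 4 were Lcn2, an iron-binding antimicrobial protein of epithelium and neutrophils, and the matrix metalloproteinase genes Mmp3, Mmp9 and Mmp13. Mmp3 ran from 4.32 through 6.21 to 6.34 in KR and from 7.11 through 7.52 to 7.91 in KHR tumours, a change of 1.83 ± 0.33 (limma, adjusted p = 0.00713). Lcn2 ran from 5.14 through 6.47 to 7.64 and from 7.70 through 8.25 to 8.40, a change of 1.69 ± 0.30 that was 0.95 with the mean of its probesets. Mmp13 ran from 9.02 through 9.52 to 9.74 and from 10.1 through 10.3 to 10.7, a change of 0.83 ± 0.14 (adjusted p = 0.00423). The groups did not overlap for these 3 genes, nor for 1.83% of all genes in this direction. Mmp9, which neutrophils also store, rose by 1.04 ± 0.25 (adjusted p = 0.0317). Removing any of 8 single arrays ended that call (adjusted p up to 0.0778), as did averaging the probesets (0.65, adjusted p = 0.0763).

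The 4 classical early targets named here did not pass. Cxcl1, a neutrophil chemokine, differed by 0.20 ± 0.17, Il6 by 0.09 ± 0.08, the prostaglandin synthase gene Ptgs2 by -0.49 ± 0.47 and Nfkbia, the feedback inhibitor of NF-kB, by -0.11 ± 0.20, with adjusted p-values of 0.627, 0.682, 0.692 and 0.860 in limma. These 4 are named for their role, after their values were seen. The level of Il6 in KR tumours, 3.98, lay below the median of all genes. Other targets had smaller p. Il23a differed by 1.16 ± 0.37 (limma, adjusted p = 0.115) and passed with the mean over probesets (1.12, adjusted p = 0.0270) and with median polish (1.19, adjusted p = 0.0437). Ptges differed by 1.03 ± 0.32 (adjusted p = 0.102) and passed only with median polish (0.71, adjusted p = 0.0447). Birc3 and Sod2 (adjusted p = 0.0934 and 0.111) passed with neither summary. Zc3h12a differed in the opposite direction, by -0.40 ± 0.17 (adjusted p = 0.261).

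**Figure D4:**
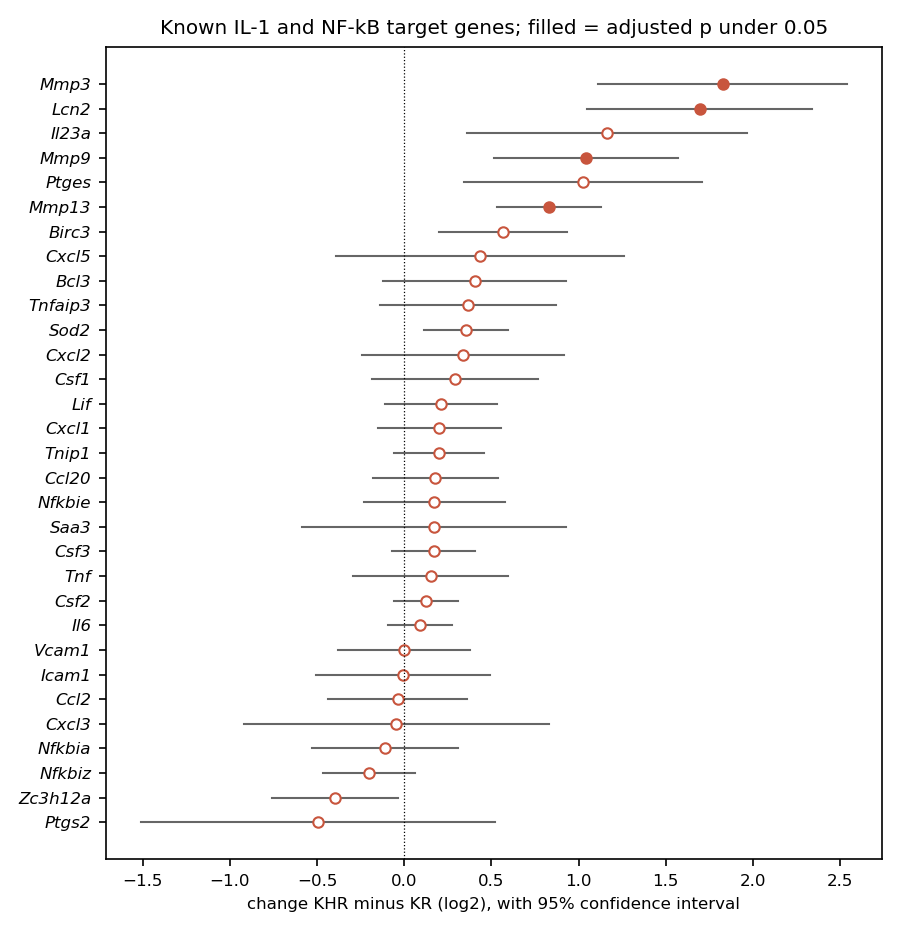
Change between KHR and KR tumours on the log2 scale with its unadjusted 95% confidence interval (limma, n = 6 each) for 31 known IL-1 and NF-kB target genes. Filled points, Mmp3, Lcn2, Mmp9 and Mmp13, passed the threshold, and none of the genes below 0 did.

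Among markers of the leukocytes that make or bind IL-1, 2 neutrophil and 2 macrophage genes passed as higher. Each of these 2 lists had 5 genes at an unadjusted p under 0.05 in limma. Over all genes, 2.71% passed as higher and 1.03% as lower. Of 18 neutrophil genes, 2 rose and none fell: the chemokine receptor gene Cxcr2, by 0.83 ± 0.14 (limma, adjusted p = 0.00488), and Mmp9. S100a8 and S100a9, made by neutrophils and by stressed keratinocytes, differed by 1.08 ± 0.36 and 1.32 ± 0.41 (adjusted p = 0.131 and 0.105). The granule genes Elane and Ctsg, of neutrophil precursors, lay at 3.82 and 3.62 in KR tumours, below the median of all genes. Ctsg is not on the list of 18. Mpo, Camp, Ngp and Cd177, which are on it, differed by 0.02, -0.02, -0.06 and -0.08 (adjusted p = 0.962, 0.956, 0.779 and 0.749). All of these, from S100a8 on, are named for their role, after their values were seen. Of the 18, 9 lay above the median level of all genes, and the median change was 0.31. Of 15 macrophage genes, Ms4a7 rose by 1.15 ± 0.29 and Mertk by 0.48 ± 0.12 (adjusted p = 0.0433 and 0.0378), calls that were lost on leaving out any of 9 and 10 arrays (adjusted p up to 0.0982 and 0.0858). Neither passed when probesets were combined by median polish (0.47 and 0.18, adjusted p = 0.134 and 0.327); the mean over probesets kept both, at 0.63 and 0.28 (adjusted p = 0.0354 and 0.0331). Of 12 fibroblast genes, Col1a2 fell by 0.80 ± 0.18 on the log2 scale (adjusted p = 0.0220; up to 0.0578, without KHR 4 or KHR 6 above the threshold). With median polish its difference was -0.54 and did not pass (adjusted p = 0.0507). The fibroblast list as a whole was not lower, with a median change of 0.07 and 2 genes at an unadjusted p under 0.05 in limma. Its mean per array ran from 7.98 to 9.10 in KR and from 8.11 to 9.04 in KHR tumours. None passed among 10 mast cell genes, 13 genes of T, NK and innate lymphoid cells, 11 endothelial and 30 skeletal muscle genes (0, 0, 1 and 2 at an unadjusted p under 0.05 in limma). The part of these cell types in the values of the IL-1 family was not tested.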

How the data were processed

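Total RNA of 12 oral tumours was measured on Affymetrix mouse exon-level arrays. The deposited values were log2 intensities, 1 per probeset and array, for 269751 probesets; Partek, with no version, is named in the submitters' processing notes, while no source used here gives the background correction, normalization or genome build. Base 2 was inferred from the values, which ran from 2.66 to 14.9. Array medians lay between 5.62 and 5.75, and no 2 arrays correlated above 0.97. Precision is limited by having 6 arrays per group.

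GEO's platform annotation gave the probesets' genes: 233753 had 1 symbol, 5106 several and 30892 none. Older symbols were updated through the RefSeq table of GRCm38.p6, where 20875 of 23152 symbols were current, 2247 had 1 newer symbol and 30 (27 with several candidates, 3 with none) were kept. The gene value was the median over probesets with 1 symbol, for 23102 genes with no filter. Changes are KHR minus KR from limma 3.58.1 in R 4.3.3 (lmFit, eBayes; two-sided; Benjamini-Hochberg over all genes, threshold 0.05), tested on simulated data. In a simulation of this comparison with 23102 genes, 44 of 100 genes changed by 0.5 and 81 of 100 changed by 1 (log2) were called.

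The members and lists were chosen with earlier results of these data known. Named were all members, list genes past the threshold or up to 3 with the smallest p, and genes named for their role as said. Replicate numbers were checked for pairing: deviations of same-numbered arrays correlated between -0.00 and 0.23, and only 2 of 6 pairs exceeded 0.1, so numbers were not taken as pairs. Alternatives covered the probeset summary, scaling, filters, variance model, weights, covariates, an exact permutation test and leaving out each array. Figures were made with Python 3.11.15 and matplotlib 3.10.9.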

Additional observations from a re-analysis of the deposited data

Results flagged for a closer look

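Il1f9 in KHR 3, at 12.41, stood apart from the other 5 KHR arrays, of which the nearest was at 12.71; the gap was a share of 0.662 of the group's range, above the critical value of Dixon's test for 6 samples. It was 1 of 18 groups of 6 examined, and chance flags about 1 group in 20.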

How the results depend on the processing

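Il1a kept its direction under all 26 alternatives and its call under 22, with changes of 0.73 to 0.90 on leaving out single arrays (limma, adjusted p up to 0.0480); the call was lost with the muscle, neutrophil and macrophage covariates and with the exact permutation test. That test gave an unadjusted p of 0.0021645 for Il1a, the smallest it can give, adjusted p = 0.0810. The count of members called higher was thus 0 with these 4 and at an adjusted p under 0.01, with 1, 1, 2, 2 and 1 members higher at an unadjusted p under 0.05; it was 1 on leaving out any array. The count of members called lower was 0 throughout (1 at an unadjusted p under 0.05 in limma, or 0 with the macrophage covariate). The replicate block, with 1 member called higher, changed no member's call.

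Differences that did not pass and changed sign were those of Il1b (-0.021) with the neutrophil covariate, of Il1rn with the mean over probesets (-0.071) and the neutrophil covariate (-0.19), of Il18 with the neutrophil covariate (0.036), of Il1r1 with the macrophage covariate (-0.041), and of Il1r2 with the mean over probesets (-0.088), median polish (-0.094), array weights (-0.055), Xist (-0.024) and the neutrophil covariate (-0.35). On leaving out single arrays, Il18 ranged from -0.35 to 0.034 and Il1r2 from -0.16 to 0.20; without crossing 0, Il1b ranged from 0.27 (without KHR 1) to 0.57, Il1rn from 0.11 (without KHR 1) to 0.32 and Il1r1 from 0.11 (without KR 2) to 0.33 (without KHR 1). The cause was not tested.

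All genes called higher, 625, and lower, 238, became 973 and 472 with the mean over probesets, 416 and 139 with Xist, 202 and 65 with the neutrophil covariate, 78 and 24 with the macrophage covariate, 249 and 63 at an adjusted p under 0.01, and 0 and 0 with the exact permutation test (2030 and 1406 at an unadjusted p under 0.05). Those lower became 427 with median polish and 132 with the muscle covariate. On leaving out single arrays they ranged from 400 to 797 and from 123 to 288, with 400 and 131 without KR 2, 400 and 123 without KHR 4 and 151 lower without KR 6.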
